A study of Homo sapiens with 30 samples.

Results

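Collagens are the main structural proteins of the extracellular matrix, and U2OS, a line grown from a human osteosarcoma, carries counts for a broad set of their genes. The members described here are all rows of the count table whose symbol is COL, a number, A and a number, which picks out the genes for collagen chains. The rule found 44 of the 57373 rows. Of these, 37 had enough counts to be tested and 7 did not. The rule reads only the symbols and no measured values, although collagens were chosen as the subject with earlier results of these data known.

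The table holds 6 groups of 5 libraries each, and the series asks how beta-catenin bears on the activity of the transcription factor FOXP2. All cells were U2OS. The mock group received neither FOXP2 plasmid nor CHIR 99021. The CHIR group received CHIR 99021, a GSK3 inhibitor that activates beta-catenin signalling, at 5 µM, given 72 h ahead of the transfection step. The WT FOXP2 group received 500 ng of a plasmid for full-length FOXP2 and was collected 48 h later, and the dhelix FOXP2 group received the same amount of a FOXP2 that lacks residues 264 to 272. The WT FOXP2 + CHIR and dhelix FOXP2 + CHIR groups combined each plasmid with CHIR. The label of 1 library of the WT FOXP2 + CHIR group leaves out which FOXP2 it carries, and its title places it in that group. The sources used here do not say whether the mock cells received an empty plasmid, so an effect of FOXP2 and an effect of receiving any plasmid cannot be told apart in the comparisons with mock or with CHIR alone. They also do not give the promoter that drives FOXP2 or the share of cells that took up the plasmid.

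Each collagen molecule is a bundle of chains wound into a helix, and the chain genes fall into classes by the structure that the finished molecule builds. Fibrillar collagens (types I, II, III, V, XI, XXIV and XXVII) form the rope-like fibrils of bone, cartilage, skin and tendon, and type I is the main protein of bone matrix. Type IV chains build the sheet of the basement membrane, type VIII builds a hexagonal network, and FACIT collagens sit on the surface of fibrils. Type VI forms beaded filaments around cells, type VII anchors epithelium to the tissue beneath it, multiplexins are found at basement membranes, and the transmembrane collagens span the cell surface. Chains are made in the endoplasmic reticulum, where proline and lysine are hydroxylated, and are trimmed and cross-linked outside the cell.

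The libraries held 15755842 to 29466652 counts, and levels are given below as counts per 1000000 counts (CPM), scaled for library composition. FOXP2 stood at 0.898 CPM in mock and 0.504 CPM in CHIR libraries, at 7077 CPM in WT FOXP2, 5319 CPM in dhelix FOXP2, 15299 CPM in WT FOXP2 + CHIR and 13481 CPM in dhelix FOXP2 + CHIR libraries, so FOXP2 RNA differed between the plasmid groups with and without CHIR. AXIN2, a target gene of beta-catenin signalling, was at 21.0 CPM in mock and 145 CPM in CHIR libraries. Replicate 1 of the CHIR group stood apart from its 4 partners, which differed from it by a chi-square of 18.8 to 34.8 per gene, against 1.39 for the closest pair within any group, and it was the lowest of its group for COL1A1, COL4A2, COL6A1 and COL6A2. An earlier reading of these data also set apart replicate 5 of dhelix FOXP2 and replicate 4 of WT FOXP2 + CHIR. Counts of called genes are therefore given with all libraries and without these 3. The labels call the cells epithelial: among 5 epithelial markers, KRT8 was at 199 CPM in mock, and CDH1 at 0.377 CPM. KRT18 was at 169.5, EPCAM at 6.71 and KRT19 at 0.0461 CPM. Of the 6 mesenchymal and osteosarcoma markers, VIM was at 1968 CPM in mock, CD44 at 74.2, RUNX2 at 58.3, ALPL at 3.19 and SP7 at 0.0607 CPM. TWIST1 had 0 counts in mock.

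Promoter windows of 300 bases, from 250 before to 50 after the start of the gene, were taken from RefSeq (build GRCh38.p14) and matched 32 of the 44 members. COL1A1, COL6A1, COL5A2, COL22A1, COL8A1, COL3A1, COL14A1, COL6A5, COL2A1, COL20A1, COL9A3 and COL1A2 had no window, so their promoters were not searched. Shown first are paired type IV genes whose partner chains are compared below. They lie head to head, and their starts are so close that their windows overlap. COL4A4 and COL4A3 also lie head to head, with windows that share 82 bases. Their chains were not compared, as COL4A3 was at most 0.231 CPM in any library, and they are not shown. The COL4A1 window (chr13:110307108-110307407, minus strand) and the COL4A2 window (chr13:110307034-110307333, plus strand) share 226 bases. The COL4A6 window (chrX:108439409-108439708, minus strand) and the COL4A5 window (chrX:108439588-108439887, plus strand) share 121 bases. COL13A1 (chr10:69801656-69801955, plus strand) and COL17A1 (chr10:104085831-104086130, minus strand) follow, the transmembrane collagens whose RNA was higher in cells with either FOXP2 plasmid. All are written 5′ to 3′ on the strand of the gene, and capitals mark a match to one of the motifs searched.
COL4A1: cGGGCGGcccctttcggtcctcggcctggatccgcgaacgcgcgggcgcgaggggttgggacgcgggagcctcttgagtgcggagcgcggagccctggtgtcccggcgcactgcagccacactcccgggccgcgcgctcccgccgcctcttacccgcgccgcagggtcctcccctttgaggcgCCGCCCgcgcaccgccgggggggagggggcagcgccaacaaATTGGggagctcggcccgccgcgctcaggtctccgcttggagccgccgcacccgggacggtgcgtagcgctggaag
COL4A2: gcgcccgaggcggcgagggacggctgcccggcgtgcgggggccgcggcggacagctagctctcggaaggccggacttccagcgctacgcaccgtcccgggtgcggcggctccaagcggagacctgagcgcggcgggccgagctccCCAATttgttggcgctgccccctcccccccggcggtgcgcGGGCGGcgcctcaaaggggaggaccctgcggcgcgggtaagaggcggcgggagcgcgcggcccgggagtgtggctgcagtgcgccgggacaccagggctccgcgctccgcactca
COL4A6: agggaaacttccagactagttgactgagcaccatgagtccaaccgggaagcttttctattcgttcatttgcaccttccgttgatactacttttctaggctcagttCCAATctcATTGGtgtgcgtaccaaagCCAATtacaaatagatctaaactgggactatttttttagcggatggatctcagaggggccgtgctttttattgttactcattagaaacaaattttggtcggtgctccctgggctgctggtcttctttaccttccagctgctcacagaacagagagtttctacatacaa
COL4A5: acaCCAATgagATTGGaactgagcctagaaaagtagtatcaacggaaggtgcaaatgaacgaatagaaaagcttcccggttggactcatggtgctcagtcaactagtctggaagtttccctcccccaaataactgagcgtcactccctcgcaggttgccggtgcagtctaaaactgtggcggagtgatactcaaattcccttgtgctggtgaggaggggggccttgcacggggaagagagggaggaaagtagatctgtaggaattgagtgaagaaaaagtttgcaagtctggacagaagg
COL13A1: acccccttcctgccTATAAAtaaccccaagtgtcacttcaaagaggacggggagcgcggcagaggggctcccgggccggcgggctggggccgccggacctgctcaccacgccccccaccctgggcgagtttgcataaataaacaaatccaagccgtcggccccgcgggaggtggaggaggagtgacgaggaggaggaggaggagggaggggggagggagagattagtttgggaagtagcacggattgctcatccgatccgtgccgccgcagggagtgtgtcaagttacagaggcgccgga
COL17A1: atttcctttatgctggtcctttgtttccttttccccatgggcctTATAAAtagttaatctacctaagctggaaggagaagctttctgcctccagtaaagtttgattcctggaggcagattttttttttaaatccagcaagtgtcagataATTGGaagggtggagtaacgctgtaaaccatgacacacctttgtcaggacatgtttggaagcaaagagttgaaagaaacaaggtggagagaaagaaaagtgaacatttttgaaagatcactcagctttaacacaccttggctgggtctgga

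Searching both strands for 6 short motifs found a forkhead motif (TGTTTAC), a TCF/LEF motif (CTTTGAT) and an AP-1 motif (TGACTCA) in 0 of the 44 windows of these 32 members. Over all 35116 RefSeq windows, 3.42%, 2.62% and 4.95% held them. A GC box (GGGCGG) lay in 24 of the 44 windows (54.5%), against 45.0% of all windows. The CCAAT box (CCAAT) lay in 14 (31.8%), against 34.6%, and a TATA box (TATAAA) in 8 (18.2%), against 11.5%. Some genes have several windows, and those of COL5A1 overlap. The head-to-head type IV windows overlap as well, so sites such as the CCAAT box shared by COL4A1 and COL4A2 are counted more than once. COL13A1 held a TATAAA from base -236 and COL17A1 from base -206, counted from the start of the gene. TATAAA also lay in windows of COL10A1, COL6A6, COL6A2, COL7A1 and COL18A1, and the last of these, with COL6A2 and COL7A1, fell with both plasmids. No motif contains another. A match of letters is a description of the window, and sequence outside the windows was not searched.

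Mock-transfected U2OS cells expressed collagens of most classes. Divided by the length of the longest coding transcript, so that genes can be compared, the highest levels in mock were those of COL1A1 at 194 ± 7.17 CPM per kilobase (SD, n = 5), COL6A2 at 169 ± 6.83, COL4A2 at 159.6 ± 3.24 and COL6A1 at 119.8 ± 3.60. COL4A1, COL6A3, COL12A1, COL5A1, COL11A1 and COL5A2 followed, between 85.8 and 36.4 CPM per kilobase. COL1A2, whose chain joins COL1A1 chains in ordinary type I collagen, was close to absent, with no library above 0.369 CPM and 83 counts over all 30 libraries. The other members left untested were COL25A1, COL21A1, COL4A3, COL10A1, COL23A1 and COL9A1, which had 138 to 10 counts over the 30 libraries and at most 0.714 CPM in any library. The order of levels per kilobase differed between groups: COL1A1 ranked 1 in mock, 5 in CHIR, 7 in WT FOXP2 and 8 in dhelix FOXP2 cells, while COL13A1 ranked 18 in mock, 12 in CHIR, 8 in WT FOXP2 and 6 in dhelix FOXP2 cells.

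Collagen genes took 0.717 ± 0.0130% of all counts in mock (SD, n = 5), 0.307 ± 0.0403% in CHIR, 0.353 ± 0.00753% in WT FOXP2 and 0.381 ± 0.00600% in dhelix FOXP2 libraries. With both a plasmid and CHIR the share was 0.286 ± 0.00693% (WT FOXP2) and 0.321 ± 0.0148% (dhelix FOXP2). No mock library fell below 0.699%, and no library of another group went above 0.385%. In bulk RNA, fewer cells that make a transcript and less of it per cell cannot be told apart. By class, the fibrillar share was 0.247% in mock and 0.0677%, 0.0406% and 0.0478% in CHIR, WT FOXP2 and dhelix FOXP2 libraries. The basement membrane share was 0.175% in mock, 0.115% and 0.119% with the plasmids, and 0.0666%, 0.0503% and 0.0578% in the CHIR, WT FOXP2 + CHIR and dhelix FOXP2 + CHIR groups. Transmembrane collagens went the other way, from 0.00155% in mock to 0.0124% and 0.0148% with the plasmids alone. In the groups with a FOXP2 plasmid, the classes with the most collagen counts were thus type VI and type IV, while in mock it was the fibrillar class.

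**Figure D1:**
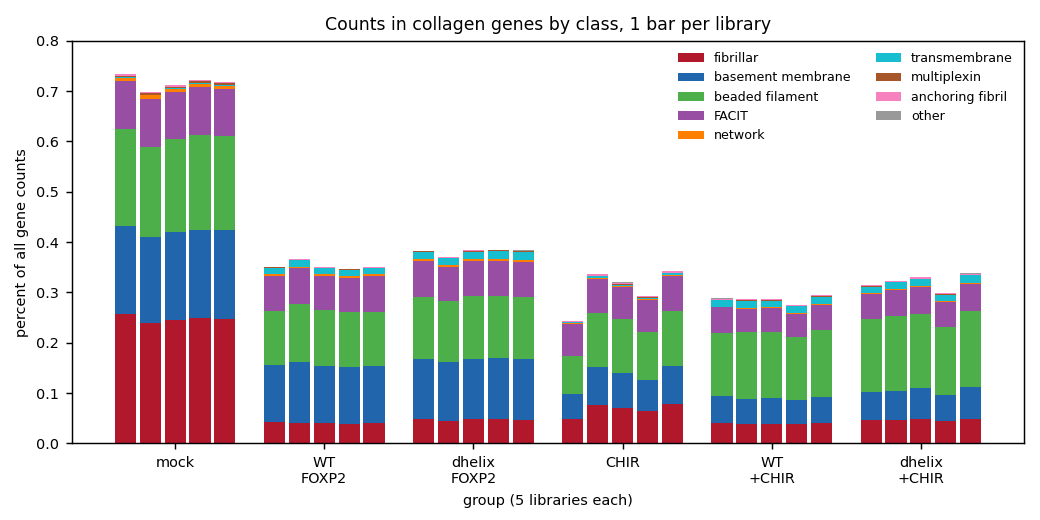
Share of all counts in collagen genes (percent) in each of the 30 libraries, by group and collagen class. The mock libraries sit between 0.699% and 0.734%, above all libraries of the other 5 groups, and the fibrillar class makes up the largest part of the gap.

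All changes below are log2 fold changes ± SE from 1 edgeR quasi-likelihood fit of all 30 libraries (n = 5 in each group), with p-values adjusted by Benjamini-Hochberg over 18485 genes and a threshold of 0.05. Against mock, CHIR raised 8 and lowered 27 of the 37 tested collagen genes, and 74.1% of all tested genes passed the same threshold (38.8% higher, 35.3% lower). The median change of the collagens was -1.06, beside 0.023 for all genes. WT FOXP2 raised 7 and lowered 27, where 81.6% of all genes passed (39.9% higher, 41.6% lower), with medians of -1.49 for the collagens and -0.022 for all genes. dhelix FOXP2 raised 7 and lowered 28, where 80.5% of all genes passed (39.6% higher, 40.9% lower), with medians of -1.07 and -0.015. Since most genes passed, the share of collagens called is read against these percentages: the lower calls made up a larger share of the collagens than of all genes in each comparison. Without the 3 libraries named above the counts were 9 higher and 27 lower for CHIR, 6 and 27 for WT FOXP2, and 7 and 28 for dhelix FOXP2. The libraries did not overlap with mock for 32, 33 and 34 of the 37 genes, against 57.7%, 73.0% and 73.2% of all tested genes. These 3 comparisons share the mock libraries, so their changes are not independent of each other.

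**Figure D2:**
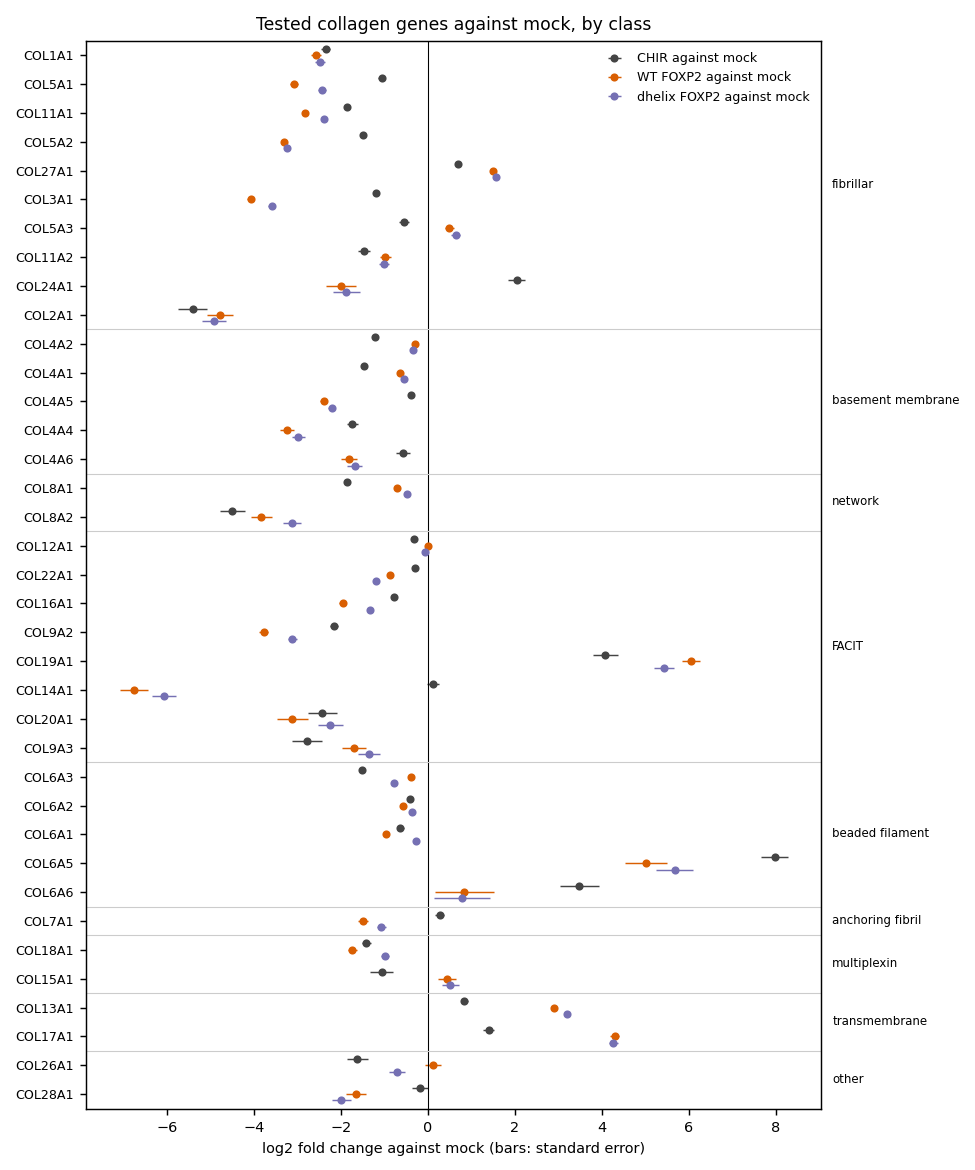
Log2 fold changes against mock (± SE) of the 37 tested collagen genes by class, for CHIR, WT FOXP2 and dhelix FOXP2, n = 5 libraries in each group. Most fibrillar, basement membrane and FACIT genes lie below 0 in all 3 comparisons, and the transmembrane genes COL13A1 and COL17A1 lie above 0. COL6A5, with 2 counts in mock, is drawn at its fitted value, which is no bound.

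The fibrillar class, which held the most collagen counts in mock cells, fell in most of its members. In each of the 3 comparisons with mock, 8 of its 10 tested genes fell and 2 rose. COL1A1, the main chain of bone collagen, was at 1354, 1231, 1293, 1332 and 1328 CPM in the 5 mock libraries, at 219, 218, 228, 210.0 and 220.0 in WT FOXP2, at 238, 219, 241, 243 and 230.3 in dhelix FOXP2 and at 150.0, 302, 274, 237 and 317 in CHIR libraries. All 5 mock libraries thus lie far above every other library. The change was -2.35 ± 0.11, adjusted p = 4.03e-17 with CHIR, -2.58 ± 0.11, adjusted p = 3.49e-18 with WT FOXP2 and -2.48 ± 0.11, adjusted p = 7.94e-18 with dhelix FOXP2. With both treatments COL1A1 was at 177, 169, 173, 163 and 173 CPM (WT FOXP2) and 195, 197, 201, 183 and 218 CPM (dhelix FOXP2).

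COL5A1 and COL5A2 encode chains of type V collagen, which starts fibrils and limits their width. COL5A1 was at 355, 336, 349, 342 and 359.8 CPM in mock, 121, 186, 179, 151 and 199.5 in CHIR, 45.0, 41.6, 38.1, 39.6 and 40.9 in WT FOXP2 and 71.4, 56.8, 65.1, 64.8 and 63.6 in dhelix FOXP2 libraries. These 4 groups did not overlap, and their order from high to low was mock, CHIR, dhelix FOXP2 and WT FOXP2. COL5A1 fell by 1.06 with CHIR (adjusted p = 2.27e-13), by 3.09 with WT FOXP2 (adjusted p = 1.08e-24) and by 2.44 with dhelix FOXP2 (adjusted p = 1.76e-22), all on the log2 scale. COL5A2 was at 264, 258, 259.9, 259 and 246 CPM in mock, 77.8, 101, 93.4, 89.7 and 97.3 in CHIR, 30.7, 26.2, 24.5, 24.5 and 24.7 in WT FOXP2 and 27, 24.7, 28.3, 26.8 and 30.1 in dhelix FOXP2 libraries, and WT FOXP2 replicate 1 was the highest of its group. Its changes against mock were -1.49 ± 0.054, -3.31 ± 0.06 and -3.23 ± 0.059 for CHIR, WT FOXP2 and dhelix FOXP2. The mock and CHIR libraries do not overlap with each other or with those of the plasmid groups, which overlap among themselves.

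COL11A1, a minor fibril chain of cartilage, was at 299.6, 292, 294, 285 and 287 CPM in mock, 73.4, 85, 80.4, 77.3 and 87.2 in CHIR, 43.2, 41.9, 40.0, 38.5 and 42.4 in WT FOXP2 and 59.6, 53.7, 55.7, 55.1 and 53.6 in dhelix FOXP2 libraries. These 4 groups did not overlap, with changes against mock of -1.85 ± 0.041, -2.82 ± 0.043 and -2.39 ± 0.041 in the order CHIR, WT FOXP2 and dhelix FOXP2. COL3A1, the type III chain of soft connective tissue, went from 72.7 ± 2.32 CPM in mock to 31.9 ± 4.03 with CHIR, 4.30 ± 0.615 with WT FOXP2 and 6.01 ± 0.581 with dhelix FOXP2, the largest fall with WT FOXP2 among fibrillar genes with at least 1 CPM in each of these groups (-4.08 ± 0.081, adjusted p = 1.35e-32). COL2A1, the main chain of cartilage, was at 3.09 ± 0.330 CPM in mock and 0.0672 ± 0.0745, 0.0945 ± 0.0991 and 0.0970 ± 0.0529 CPM in the CHIR, WT FOXP2 and dhelix FOXP2 groups. Its changes of -5.41, -4.78 and -4.91 rest on few counts and moved to -6.06 without CHIR replicate 5 and to -5.71 without WT FOXP2 replicate 5. COL11A2, the other type XI chain, fell from 6.53 ± 0.428 CPM to 2.37 ± 0.784, 3.30 ± 0.446 and 3.24 ± 0.306 CPM.

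The fibrillar genes that rose were not the same for the compound and the plasmids. COL27A1, a short fibrillar chain of growth cartilage, rose in all 3 comparisons, from 29.3 ± 2.57 CPM in mock to 47.3 ± 6.81 with CHIR (0.69 ± 0.072, adjusted p = 1.13e-10), 82.4 ± 2.79 with WT FOXP2 (1.49 ± 0.07, adjusted p = 1.47e-20) and 86.1 ± 3.10 with dhelix FOXP2 (1.55 ± 0.069, adjusted p = 3.48e-21). COL24A1, a fibrillar chain expressed in forming bone, rose with CHIR from 1.00 ± 0.397 to 4.27 ± 1.15 CPM (2.04 ± 0.2, adjusted p = 2.03e-11) and fell with the plasmids to 0.252 ± 0.142 and 0.279 ± 0.0573 CPM. COL5A3, the remaining type V chain, fell with CHIR from 6.77 ± 0.633 to 4.60 ± 0.892 CPM and rose with the plasmids to 9.52 ± 1.19 and 10.5 ± 0.696 CPM. Markers of fibroblasts differed between the groups as well: the 5 fixed markers, of which 4 were tested and DCN was close to 0, summed to 237 to 245 CPM in mock, 75.9 to 106 CPM in CHIR, 147 to 163 CPM in WT FOXP2 and 154 to 166 CPM in dhelix FOXP2 libraries. The single markers did not all follow the sum. THY1, the highest of them, was at 144 CPM in mock, 62.8 with CHIR, 146 with WT FOXP2 and 153 with dhelix FOXP2, PDGFRA was at 71.1, 1.18, 4.90 and 2.87 CPM, LUM at 16.2, 10.9, 1.95 and 2.43 CPM, and FAP at 11.2, 17, 1.51 and 1.52 CPM in the same order. Their part in the fibrillar result was not tested.

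Type IV collagen fell in every member tested. All 5 tested basement membrane genes were lower than in mock with CHIR, with WT FOXP2 and with dhelix FOXP2, and class medians were -1.22, -1.81 and -1.68. COL4A2 was at 1030.3, 1007, 1036, 1046 and 1064 CPM in mock, 829.7, 886, 834, 819 and 835 in WT FOXP2, 821, 792, 834, 823 and 832 in dhelix FOXP2 and 324, 513, 468, 406 and 516 in CHIR libraries. Both plasmid groups lie just under mock and overlap each other, while all CHIR libraries lie far below. The changes were -0.30 ± 0.073, adjusted p = 0.000395 with WT FOXP2, -0.34 ± 0.073, adjusted p = 0.00011 with dhelix FOXP2 and -1.22 ± 0.074, adjusted p = 1.3e-15 with CHIR. COL4A1, which joins COL4A2 in the common form of type IV, was at 569, 566, 577, 559 and 567 CPM in mock, 364, 388, 353, 356 and 361 in WT FOXP2, 392, 382, 385, 386 and 392 in dhelix FOXP2 and 162, 229, 210.0, 185 and 236 in CHIR libraries. As for COL4A2, the plasmid groups overlapped each other and lay between mock and CHIR, although here dhelix FOXP2 had the higher mean of the plasmid groups. The changes of COL4A1 were -0.64 ± 0.06 with WT FOXP2, -0.55 ± 0.06 with dhelix FOXP2 and -1.48 ± 0.062 with CHIR.

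The minor type IV chains, found in kidney and other specialised basement membranes, had lower means with the plasmids than with CHIR, although these groups were not tested against each other. COL4A5 was at 27.9 ± 0.626 CPM in mock, 21.3 ± 2.22 with CHIR (-0.40 ± 0.066, adjusted p = 1.84e-06), 5.31 ± 0.565 with WT FOXP2 (-2.40 ± 0.078, adjusted p = 6.7e-26) and 6.02 ± 0.518 with dhelix FOXP2. COL4A4 was at 9.11 ± 1.05 CPM in mock, 2.73 ± 0.542 with CHIR, 0.946 ± 0.225 with WT FOXP2 and 1.15 ± 0.324 with dhelix FOXP2. COL4A6 was at 1.89 ± 0.305 CPM in mock and at 1.26 ± 0.265, 0.516 ± 0.172 and 0.582 ± 0.0679 CPM in the same order. WT FOXP2 cells with CHIR, compared with CHIR alone, had less COL4A5 (-2.79 ± 0.088, adjusted p = 7.68e-26), and dhelix FOXP2 cells with CHIR likewise (-2.15 ± 0.084, adjusted p = 6.22e-23).

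Of the network class, COL8A1 and COL8A2, which build the type VIII lattice of vessels and the cornea, both fell against mock in the 3 comparisons. COL8A1 was at 54.2, 58.2, 55.7, 58.3 and 54.5 CPM in mock, 37.8, 33.1, 35.2, 32.7 and 34.3 in WT FOXP2, 43.0, 37.9, 41.2, 38.8 and 40.3 in dhelix FOXP2 and 11.7, 17, 15.7, 14.2 and 19.0 in CHIR libraries. CHIR libraries were lowest without overlap, with a change of -1.86 ± 0.069, adjusted p = 7.58e-24, against -0.70 ± 0.062 and -0.48 ± 0.061 for the plasmids. COL8A2 went from 3.43 ± 0.481 CPM in mock to 0.151 ± 0.0955, 0.224 ± 0.116 and 0.384 ± 0.173 CPM in CHIR, WT FOXP2 and dhelix FOXP2 cells.

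FACIT collagens were mixed, with 1 of 8 tested genes higher and 6 lower against mock in each of the 3 comparisons. COL12A1, the most abundant of them, was at 655, 669, 649, 655 and 646 CPM in mock, 653, 669.5, 627, 640.2 and 669.5 in WT FOXP2, 643, 602, 621, 637 and 631 in dhelix FOXP2 and 525, 546, 496, 497 and 572 in CHIR libraries. It fell with CHIR (-0.31 ± 0.036, adjusted p = 9.27e-10), and with the plasmids the changes were -0.0062 ± 0.036, adjusted p = 0.878 (WT FOXP2) and -0.063 ± 0.036, adjusted p = 0.105 (dhelix FOXP2), neither past the threshold. COL22A1, a collagen of tissue junctions, was at 107, 102, 106, 106 and 103 CPM in mock, 72.5, 87.8, 88.9, 85.7 and 87.9 in CHIR, 54.1, 62.4, 56.7, 59.0 and 54.2 in WT FOXP2 and 46.6, 44.2, 47.7, 43.1 and 48.2 in dhelix FOXP2 libraries. All of the treated libraries were below all mock libraries, and CHIR replicate 1 was the lowest of the CHIR group. Its changes were -0.31 ± 0.051, -0.87 ± 0.052 and -1.19 ± 0.052.

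The remaining FACIT genes held the extremes. COL14A1, which binds to fibrils in skin and tendon, was at 5.95 ± 0.417 CPM in mock and 6.40 ± 0.640 CPM with CHIR (0.11 ± 0.14, adjusted p = 0.489, not past the threshold), but at 0.0449 ± 0.0669 and 0.0867 ± 0.0663 CPM with the WT and dhelix forms of FOXP2. Its change with WT FOXP2 was -6.76, and -7.61 without WT FOXP2 replicate 2. COL19A1 went the other way, from 0.150 ± 0.106 CPM in mock to 2.48 ± 0.610 with CHIR (4.07 ± 0.28, adjusted p = 1.71e-15), 9.78 ± 0.835 with WT FOXP2 (6.04 ± 0.21, adjusted p = 8.05e-25) and 6.34 ± 0.636 with dhelix FOXP2 (5.42 ± 0.23, adjusted p = 1.78e-22). COL9A2, a type IX chain of cartilage fibrils, fell from 75.2 ± 3.75 CPM to 16.8 ± 3.72, 5.54 ± 0.626 and 8.70 ± 0.921 CPM with CHIR, WT FOXP2 and dhelix FOXP2. COL16A1 fell from 46.4 ± 1.74 CPM to 27.2 ± 4.42, 11.8 ± 0.694 and 18.5 ± 0.923 CPM. COL20A1 and COL9A3, at 1.21 ± 0.226 and 1.01 ± 0.182 CPM in mock, were lower in the 3 groups as well. The CHIR value of COL20A1, -2.43, was -3.11 without CHIR replicate 2.

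The 3 abundant chains of type VI collagen, the beaded filament class, were lower than mock in all 3 comparisons, in different degrees. COL6A3, its long chain, was at 669, 643, 663, 668 and 634 CPM in mock, 461, 529, 509, 511 and 493 in WT FOXP2, 387, 375, 391, 375 and 386 in dhelix FOXP2 and 211, 233, 231, 229 and 234 in CHIR libraries. These groups did not overlap, with changes of -0.39 ± 0.033, adjusted p = 1.77e-13, -0.78 ± 0.033, adjusted p = 2.45e-22 and -1.53 ± 0.034, adjusted p = 6.19e-31. COL6A1 was at 514, 483, 505, 513 and 523 CPM in mock, 253, 276, 262, 253 and 256 in WT FOXP2, 407, 419, 422, 416 and 431 in dhelix FOXP2 and 231, 372, 355, 306 and 375 in CHIR libraries. Here WT FOXP2 rather than CHIR had the lower mean, with changes of -0.97 ± 0.078, -0.28 ± 0.077 and -0.63 ± 0.077. COL6A2, the gene next to COL6A1, was at 605, 555, 568, 593 and 609 CPM in mock, 387, 394, 406, 387 and 381 in WT FOXP2, 458, 449, 466, 452 and 457 in dhelix FOXP2 and 313, 486, 490.3, 422 and 485 in CHIR libraries, with changes of -0.58 ± 0.07, -0.36 ± 0.07 and -0.42 ± 0.07.

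COL6A5 and COL6A6, which encode alternative long chains of type VI, were near the detection limit in mock and highest with CHIR. COL6A5 had 2 counts over the 5 mock libraries and 558 over the 5 CHIR libraries, a ratio of 329 with a 95% counting interval of 90.7 to 2724. For WT FOXP2 (82 counts) the ratio was 42.3 (11.3 to 355) and for dhelix FOXP2 (169 counts) 66.9 (18.2 to 557). COL6A5 reached 6.25 ± 1.01 CPM with CHIR and 0.810 ± 0.186 and 1.28 ± 0.148 CPM with the plasmids. COL6A6 rose with CHIR to 1.03 ± 0.403 CPM (3.48 ± 0.46, adjusted p = 1.41e-08, and 4.07 without mock replicate 3), and with the plasmids it was at 0.153 ± 0.0774 and 0.157 ± 0.113 CPM, beside 0.0803 ± 0.0870 CPM in mock.

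Both tested transmembrane collagens rose with each treatment, while COL23A1 and COL25A1 had too few counts to be tested. COL13A1, a cell surface collagen of adhesion sites, was at 10.4, 12.3, 13.5, 13.1 and 13.3 CPM in mock, 20.8, 22.8, 25.7, 21.2 and 21.4 in CHIR, 95, 93.5, 91.7, 94.9 and 90.2 in WT FOXP2 and 111, 111, 113, 119 and 119 in dhelix FOXP2 libraries. The groups rise in that order without overlap, by 0.84 ± 0.075, adjusted p = 1.35e-12, 2.89 ± 0.067, adjusted p = 1.99e-30 and 3.19 ± 0.067, adjusted p = 9.32e-32 against mock. COL17A1, the hemidesmosome collagen that ties basal epithelial cells to their basement membrane, was at 1.60, 1.91, 1.68, 2.32 and 2.13 CPM in mock, 3.85, 5.04, 4.76, 4.55 and 6.84 in CHIR, 33.6, 39.2, 37.1, 38.5 and 36.9 in WT FOXP2 and 34.6, 35.0, 38.5, 36.2 and 37.7 in dhelix FOXP2 libraries. The change was 1.39 ± 0.13, adjusted p = 1.05e-11 with CHIR, 4.29 ± 0.099, adjusted p = 1.26e-30 with WT FOXP2 and 4.26 ± 0.098, adjusted p = 1.41e-30 with dhelix FOXP2, and the libraries of the plasmid groups overlapped each other. Epithelial markers also differed: the 5 fixed genes, of which 4 were tested and KRT19 was close to 0, summed to 360 to 400.4 CPM in mock, 637 to 672 CPM in WT FOXP2 and 641 to 689 CPM in dhelix FOXP2 libraries, and to 331 to 410.2 CPM with CHIR. The higher sums with the plasmids came from KRT18, at 169.5 CPM in mock, 481 with WT FOXP2 and 448 with dhelix FOXP2. KRT8 was at 199, 170.2 and 209 CPM, EPCAM at 6.71, 4.16 and 5.68 CPM and CDH1 at 0.377, 1.31 and 1.34 CPM in the same order. Their part in the COL17A1 result was not tested.

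Among single members of other classes, COL7A1, the anchoring fibril chain, was at 25.2 ± 2.20 CPM in mock and fell with the plasmids to 9.03 ± 0.850 and 12 ± 0.744 CPM. With CHIR it was at 30.4 ± 6.45 CPM, a rise of 0.27 ± 0.1, adjusted p = 0.0164 that was lost without CHIR replicate 3 (0.16, adjusted p = 0.145), without CHIR replicate 5 or without mock replicate 2. COL18A1, the multiplexin whose fragment is endostatin, fell from 26.0 ± 1.78 CPM to 9.77 ± 2.40 with CHIR, 7.84 ± 0.733 with WT FOXP2 and 13.1 ± 0.363 with dhelix FOXP2. COL15A1, the other multiplexin, had group means between 0.378 CPM with CHIR and 1.31 CPM with dhelix FOXP2 + CHIR. Against mock it passed the threshold downward with CHIR and upward with both plasmids, and the WT FOXP2 call was lost with a replicate block. Its libraries were at 0.577 to 1.13 CPM in mock, 0.283 to 0.622 in CHIR, 0.860 to 1.27 in WT FOXP2 and 0.972 to 1.40 in dhelix FOXP2. COL28A1 fell with both plasmids, from 1.66 ± 0.298 CPM to 0.522 ± 0.142 and 0.424 ± 0.134 CPM, and COL26A1 fell with CHIR from 1.75 ± 0.456 to 0.555 ± 0.226 CPM.

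**Figure D3:**
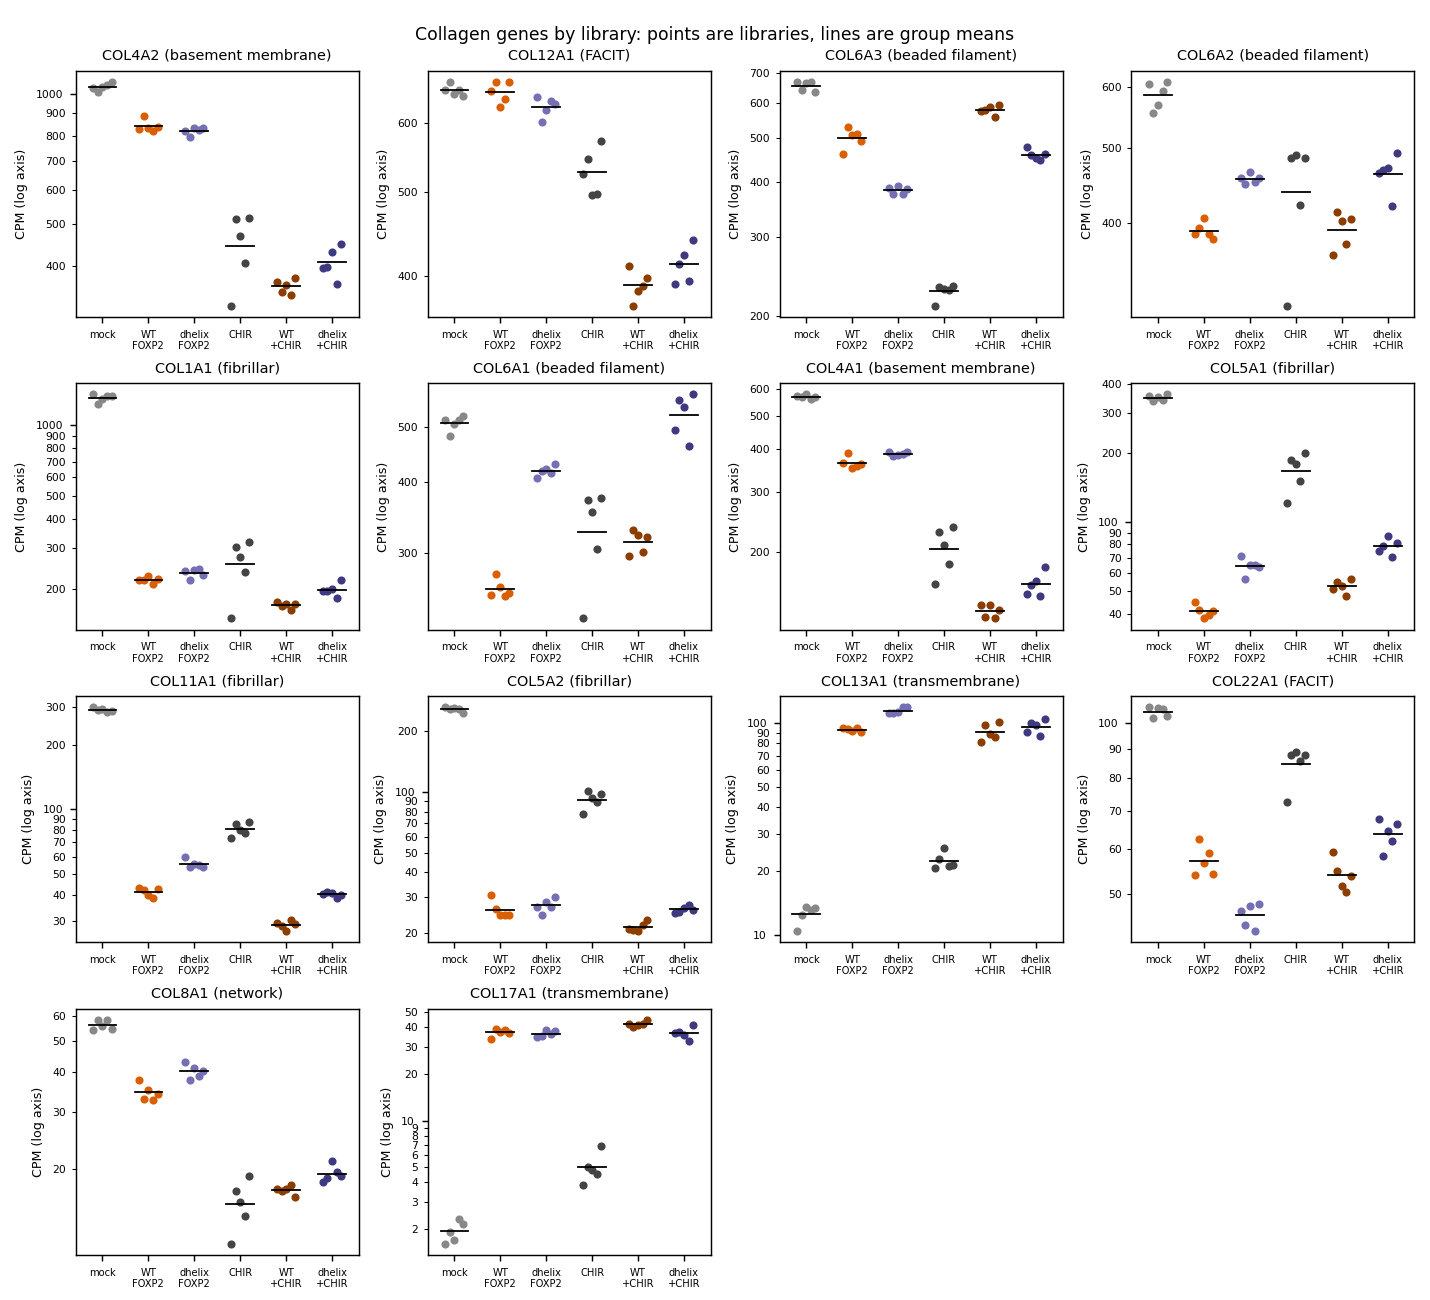
CPM (log axis) of the 14 collagen genes with values by library, in each of the 30 libraries by group. Points are libraries and lines are group means. COL1A1, COL5A1, COL5A2 and COL11A1 are highest in the 5 mock libraries, and COL13A1 and COL17A1 are highest in the 4 groups with a FOXP2 plasmid.

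The effect of CHIR was not the same in cells with and without a FOXP2 plasmid. FOXP2 RNA was itself higher with CHIR in the plasmid groups, at the levels given above, and its part in these differences was not tested. The test of that difference (the CHIR effect with WT FOXP2 minus the CHIR effect in mock) passed upward for 26 and downward for 8 of the 37 collagens, where 65.6% of all genes passed (30.7% up, 34.9% down). For dhelix FOXP2 it passed upward for 28 and downward for 7, where 64.8% of all genes passed (31.2% up, 33.7% down). The medians were 1.09 and 1.2 for the collagens, and -0.016 and -0.0048 for all genes. Without the 3 libraries the counts were 26 and 8 for WT FOXP2 and 27 and 7 for dhelix FOXP2. In cells with WT FOXP2, CHIR raised 17 and lowered 10 collagens, where 64.9% of all genes passed (34.8% higher, 30.2% lower). In cells with dhelix FOXP2 it raised 17 and lowered 9, where 63.2% passed (34.1% higher, 29.1% lower). The libraries with and without CHIR did not overlap for 22 collagens with WT FOXP2 and 20 with dhelix FOXP2, against 53.8% and 53.3% of all genes. Without the 3 libraries these were 19 and 10, and 18 and 11.

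Fibrillar genes were among those that differed. In 9 of 10 tested fibrillar genes the CHIR effect was more positive with WT FOXP2 than in mock, and the same count was found with dhelix FOXP2. For COL1A1 the CHIR effect was -2.35 ± 0.11 in mock, -0.36 ± 0.11 with WT FOXP2 and -0.23 ± 0.11 with dhelix FOXP2, and the differences were 2.00 ± 0.15, adjusted p = 5.01e-12 and 2.12 ± 0.15, adjusted p = 1.4e-12. COL5A1 fell with CHIR in mock and rose slightly with CHIR in WT FOXP2 cells, from 41.1 ± 2.57 to 52.6 ± 3.35 CPM (0.36 ± 0.091, adjusted p = 0.000972), and in dhelix FOXP2 cells, from 64.3 ± 5.20 to 78.5 ± 6.37 CPM. COL11A1 fell in all 3 backgrounds, by 1.85 in mock, 0.51 with WT FOXP2 and 0.47 with dhelix FOXP2 on the log2 scale. COL24A1 rose with CHIR in all 3, by 2.04, 3.13 and 3.61. In the plasmid groups without CHIR, COL1A1, COL5A1 and COL11A1 stood at the lower levels given above.

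COL4A1 and COL4A2 fell with CHIR in every background. COL4A2 changed by -1.22 ± 0.074 in mock, -1.23 ± 0.074 with WT FOXP2 and -1.01 ± 0.074 with dhelix FOXP2, ending at 367, 349, 361, 343 and 375 CPM in the WT FOXP2 + CHIR and 395, 398, 431, 363 and 449.7 CPM in the dhelix FOXP2 + CHIR libraries. The differences between these effects were -0.0089 ± 0.1, adjusted p = 0.95 for WT FOXP2 and 0.21 ± 0.1, adjusted p = 0.0776 for dhelix FOXP2, neither past the threshold. COL4A1 changed by -1.48 ± 0.062, -1.44 ± 0.062 and -1.27 ± 0.062, ending at 140.1, 129, 139, 128 and 135 and 151, 160.3, 165, 149 and 181 CPM. Its difference was 0.037 ± 0.087, adjusted p = 0.731 for WT FOXP2 and 0.21 ± 0.086, adjusted p = 0.0337 for dhelix FOXP2, and the latter was 0.13 (adjusted p = 0.0813) without CHIR replicate 1. COL8A1 also fell in each background, by 1.86, 1.01 and 1.06, to 17.3, 17, 17.3, 17.7 and 16.4 CPM with WT FOXP2 and, with dhelix FOXP2, 18.2, 18.6, 21.2, 19.5 and 19.0 CPM.

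COL6A3 changed direction. CHIR lowered it in mock cells, and in cells with a plasmid it was slightly higher with CHIR, at 575, 579.7, 588, 558 and 594 CPM with WT FOXP2 and, with dhelix FOXP2, 479, 459, 452, 447 and 462 CPM. The CHIR effects there were 0.21 ± 0.033, adjusted p = 6.95e-07 and 0.26 ± 0.033, adjusted p = 7.52e-09, and the differences from the effect in mock were 1.74 ± 0.047, adjusted p = 2.6e-27 and 1.79 ± 0.047, adjusted p = 1.28e-27. COL6A1 did likewise, at 297, 329, 323, 302 and 320.2 CPM with WT FOXP2 + CHIR and 495, 557, 542, 463 and 569.9 CPM with dhelix FOXP2 + CHIR, with differences of 0.91 ± 0.11 and 0.96 ± 0.11. COL6A2 was at 364, 413, 402, 376 and 404 and 464, 469, 472, 421 and 492 CPM, with CHIR effects of 0.0034 ± 0.07 and 0.022 ± 0.07, neither past the threshold.

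COL19A1, the FACIT gene that rose with each single treatment, was lower with both than with a plasmid alone. WT FOXP2 cells had 9.78 ± 0.835 CPM without and 2.34 ± 0.371 CPM with CHIR (-2.06 ± 0.13, adjusted p = 1.04e-16), and dhelix FOXP2 cells had 6.34 ± 0.636 and 1.88 ± 0.346 CPM (-1.74 ± 0.14, adjusted p = 1.71e-13). COL12A1 fell further with CHIR in cells with a plasmid, to 410.4, 369.6, 384, 389 and 397 CPM with WT FOXP2 and, with dhelix FOXP2, 392, 413, 423, 395 and 440.1 CPM, with CHIR effects of -0.74 ± 0.036 and -0.60 ± 0.036. COL13A1 was at 81.1, 97.5, 89.0, 85.8 and 101 CPM in WT FOXP2 + CHIR and 91.1, 100.2, 97.9, 86.6 and 104 CPM in dhelix FOXP2 + CHIR libraries. Its CHIR effect was -0.035 ± 0.056, adjusted p = 0.608 with WT FOXP2, not past the threshold, and -0.26 ± 0.055, adjusted p = 0.000135 with dhelix FOXP2, a fall without overlap of libraries, beside the rise in mock (differences -0.87 ± 0.093 and -1.09 ± 0.093). COL17A1 was at 42.2, 40.1, 41.3, 41.7 and 44.7 and 36.5, 37.3, 35.7, 32.4 and 41.6 CPM, with differences of -1.22 ± 0.15 and -1.38 ± 0.15. COL26A1 fell with CHIR in mock and rose with CHIR in both plasmid groups, to 4.07 ± 0.803 CPM with WT FOXP2 and, with dhelix FOXP2, 2.33 ± 0.247 CPM.

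**Figure D4:**
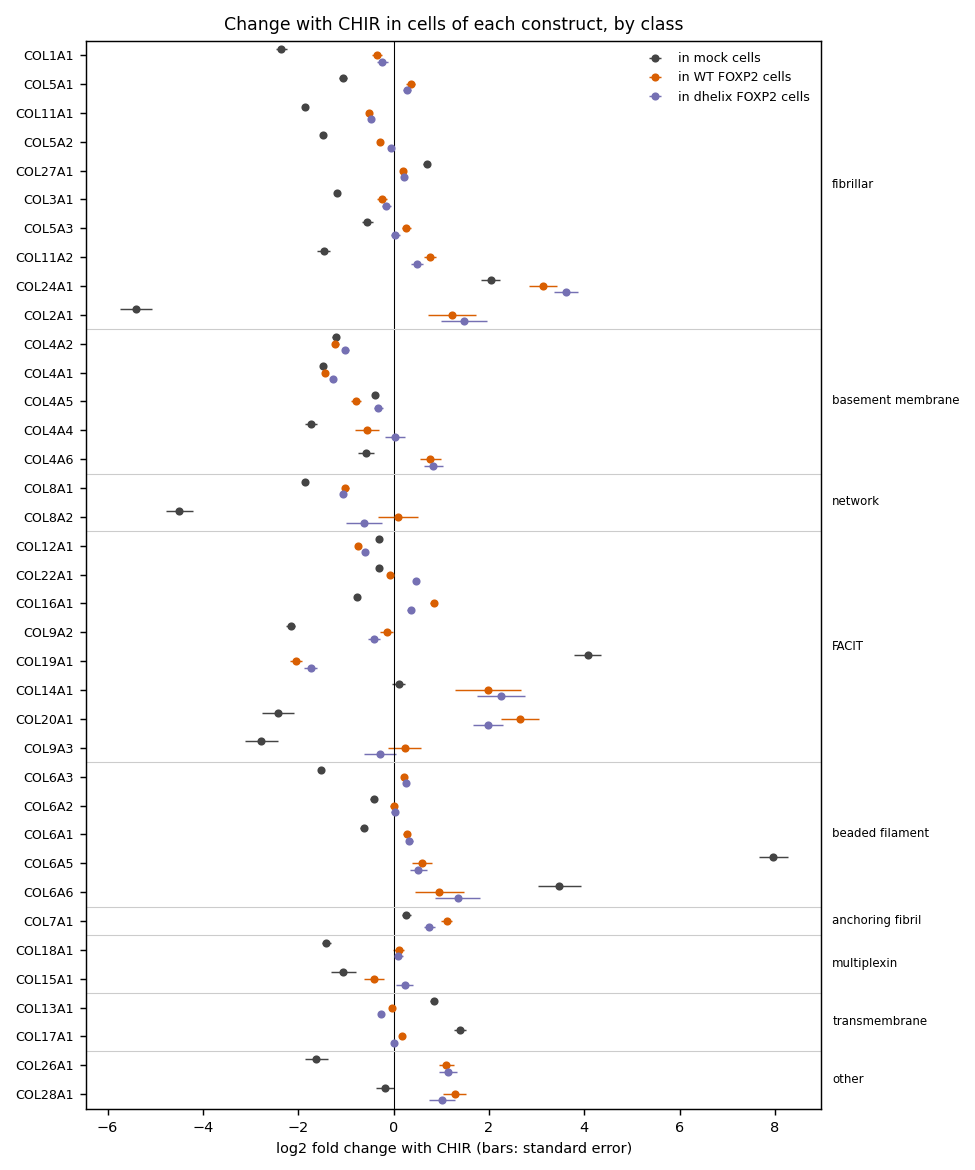
Log2 fold change with CHIR (± SE) in mock, WT FOXP2 and dhelix FOXP2 cells for the 37 tested collagen genes by class, n = 5 libraries in each group. COL4A1, COL4A2 and COL8A1 fell by 1 or more in all 3, while COL1A1, COL5A1 and COL6A3 fell by 1 or more in mock cells and changed by 0.36 or less in either direction in cells with a plasmid. The mock value of COL6A5 is a fitted value from 2 counts.

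On top of CHIR, the plasmids lowered 20 and raised 11 of the 37 collagens for WT FOXP2, where 78.4% of all genes passed (38.2% higher, 40.2% lower). They lowered 18 and raised 14 for dhelix FOXP2, where 75.9% passed (37.0% higher, 38.9% lower). Without the 3 libraries these were 21 and 11, and 18 and 14. The libraries did not overlap for 23 collagens in each, against 60.7% and 56.6% of all genes. The medians were -0.31 and -0.27, beside -0.026 for all genes in each. COL5A1, COL5A2, COL11A1 and COL3A1 again fell: COL5A2 was at 20.8, 20.7, 20.5, 21.9 and 23.3 CPM in WT FOXP2 + CHIR and 25.3, 25.3, 26.6, 27.6 and 26.1 CPM in dhelix FOXP2 + CHIR libraries, with changes against CHIR alone of -2.10 ± 0.061 and -1.81 ± 0.061. COL5A1 was at 51.4, 54.7, 53.0, 47.6 and 56.3 and 75.2, 78.5, 87.5, 70.5 and 81.0 CPM, with changes of -1.67 ± 0.086 and -1.09 ± 0.084. COL11A1 was at 29.6, 28.5, 27, 30.4 and 29.1 and 40.2, 41.0, 40.6, 38.7 and 39.7 CPM, with changes of -1.48 ± 0.045 and -1.01 ± 0.044. None of these libraries overlapped with CHIR alone. COL6A3 rose by 1.35 ± 0.033 and 1.02 ± 0.033, and COL13A1 by 2.02 ± 0.064 and 2.10 ± 0.064. COL1A1, already low with CHIR, changed by -0.58 ± 0.11, adjusted p = 2.5e-05 with WT FOXP2, and its libraries overlapped those of CHIR alone, of which replicate 1 was the lowest.

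With residues 264 to 272 of FOXP2 deleted, the collagens that passed the threshold differed by less than 2-fold from WT FOXP2. They made up 43.2% of the tested collagens without CHIR and 51.4% with CHIR, a larger share than among all genes. Between dhelix and WT FOXP2 cells 12 collagens were higher, 4 lower and 21 not past the threshold, where 35.6% of all genes passed (16.9% higher, 18.7% lower). With CHIR, 15 were higher and 4 lower, where 30.6% of all genes passed (16.6% higher, 13.9% lower). The libraries did not overlap for 16 collagens without and 13 with CHIR, against 29.9% and 24.5% of all genes. Without the 3 libraries the counts were 12 and 4, and 19 and 5. None of the collagens that passed the threshold had a fitted change of 2-fold or more in either comparison, and the medians were 0.21 with CHIR and 0.14 without, beside 0.014 and 0.0025 for all genes. FOXP2 RNA itself was lower in dhelix than in WT FOXP2 libraries without CHIR (-0.41, adjusted p = 0.000337), while with CHIR the difference was -0.18 (adjusted p = 0.106), not past the threshold. Its part in these differences was not tested.

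Most of the called differences had higher RNA with dhelix FOXP2. Without CHIR, this puts genes that both FOXP2 forms lowered nearer to mock. With CHIR, COL6A1 was at 328 CPM in CHIR alone, 314 with WT FOXP2 and 525 with dhelix FOXP2. COL18A1 libraries were at 5.80 to 11.6, 6.97 to 9.39 and 12.4 to 15.2 CPM in that order. Both genes were thus above CHIR alone with dhelix FOXP2, while COL5A1, COL3A1 and COL11A1 stayed below it. COL6A1 was higher by 0.69 ± 0.078, adjusted p = 2.97e-08 without CHIR and 0.74 ± 0.078, adjusted p = 9.72e-09 with CHIR, and no libraries overlapped in either. COL18A1 was higher by 0.75 ± 0.1, adjusted p = 6.31e-07 and 0.75 ± 0.11, adjusted p = 1.29e-06, again without overlap. COL5A1 was higher by 0.65 ± 0.089 and 0.58 ± 0.088, COL3A1 by 0.48 ± 0.1 and 0.57 ± 0.11, and COL11A1 by 0.43 ± 0.043 and 0.47 ± 0.046. COL16A1 and COL9A2 were higher without CHIR by 0.64 ± 0.077 and 0.66 ± 0.12, and COL13A1, which rose with FOXP2, by 0.30 ± 0.055. For COL1A1 the differences were 0.097 ± 0.11, adjusted p = 0.518 and 0.22 ± 0.11, adjusted p = 0.138, not past the threshold.

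COL6A3 went against its partner chains and was lower with dhelix FOXP2, by 0.39 without CHIR (adjusted p = 9.79e-12) and 0.33 with CHIR (adjusted p = 5.26e-10), without overlap. COL26A1 was lower as well, by 0.83 and 0.78, and COL19A1 by 0.63 without CHIR. COL22A1 was lower without CHIR (-0.32 ± 0.053) and higher with CHIR (0.24 ± 0.053): it was at 59.4, 55.0, 51.7, 50.4 and 53.9 CPM in WT FOXP2 + CHIR and 67.8, 58.4, 64.6, 62.0 and 66.3 CPM in dhelix FOXP2 + CHIR libraries. The test of whether the CHIR effect differed between the FOXP2 forms passed for COL22A1 (0.56 ± 0.075, adjusted p = 2.44e-06), COL16A1 (-0.48 ± 0.11, adjusted p = 0.00169) and COL4A5 (0.46 ± 0.14, adjusted p = 0.0249), 2 up and 1 down of 37, where 14.2% of all genes passed (8.93% up, 5.29% down). Without the 3 libraries it passed for 3 up and 3 down. The call of COL4A5 was lost when any of 9 single libraries was left out, for example at 0.39 (adjusted p = 0.0703) without dhelix FOXP2 replicate 2. COL13A1, at -0.22 ± 0.079, adjusted p = 0.0559, missed the threshold and passed it under several of the alternative settings.

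Chains that assemble together did not keep fixed proportions. For 6 of 11 listed partner pairs both chains reached 1 CPM in the mean over all libraries, and the log2 ratio of their CPM (with 0.5 CPM added to each) was compared between groups by two-sided exact permutation tests, whose smallest p with 5 against 5 libraries is 0.00794. Of 54 tests, 49 had a Benjamini-Hochberg adjusted p under 0.05, and the smallest adjusted p was 0.00997. In the same comparisons 30.6% to 81.6% of all genes passed the threshold of the gene tests. Ratios of other gene pairs were not tested, so whether partner chains parted more than unrelated genes is not known. These are ratios of RNA and not per length, so only their differences between groups carry meaning.

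In type VI the ratio of COL6A3 to COL6A1 was 0.37 ± 0.052 in mock (SD, n = 5), 0.94 ± 0.055 with WT FOXP2, -0.13 ± 0.037 with dhelix FOXP2 and -0.50 ± 0.24 with CHIR. The FOXP2 forms thus moved it in opposite directions from mock, by 0.58 (exact permutation test, adjusted p = 0.00997) and -0.50 (adjusted p = 0.00997), and they differed from each other by -1.07 without and -1.07 with CHIR. CHIR changed this ratio in mock by -0.87, while in plasmid cells the differences with CHIR were -0.062 (exact permutation test, adjusted p = 0.126) and -0.058 (adjusted p = 0.338). The ratio of the neighbouring genes COL6A2 and COL6A1 was 0.21 ± 0.025 in mock, 0.59 ± 0.048 with WT FOXP2 and 0.12 ± 0.033 with dhelix FOXP2.

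The head-to-head type IV pairs shown above by their shared promoter bases differed in how far their chains parted. The ratio of COL4A2 to COL4A1 ranged only from 0.87 in mock to 1.41 in WT FOXP2 + CHIR, and stood at 1.21, 1.08, 1.12 and 1.34 with WT FOXP2, dhelix FOXP2, CHIR and dhelix FOXP2 + CHIR. The ratio of COL4A6 to COL4A5 went from -3.58 in mock and -3.64 with CHIR to -2.53 and -2.59 with WT and dhelix FOXP2, and to -1.31 and -1.79 with CHIR added. Its difference between CHIR and mock was -0.06 (exact permutation test, adjusted p = 0.746), and between the FOXP2 forms -0.063 without CHIR (adjusted p = 0.728). With CHIR the forms differed by -0.47 (exact permutation test, adjusted p = 0.0365), a call lost when any of 7 of the 10 libraries was left out. COL4A6 was at 0.313 to 0.774 CPM in WT FOXP2 and 0.511 to 0.695 CPM in dhelix FOXP2 libraries. The added 0.5 CPM is large beside these levels and pulls the ratio toward 0 most where COL4A6 is lowest. Part of the shift of the COL4A6/COL4A5 ratio from mock therefore comes from the offset.

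Among fibrillar partners, the ratio of COL5A2 to COL5A1 was -0.44 ± 0.065 in mock, and its mean was lower in every other group, at -0.65 ± 0.066 with WT FOXP2, -0.85 ± 0.16 with CHIR, -1.22 ± 0.12 with dhelix FOXP2, -1.27 ± 0.11 with WT FOXP2 + CHIR and -1.56 ± 0.14 with dhelix FOXP2 + CHIR. The mean ratio of COL11A2 to COL11A1 was -5.38 ± 0.1 in mock and higher in every other group, from -4.87 ± 0.36 with CHIR to -2.28 ± 0.14 with WT FOXP2 + CHIR. The difference with CHIR alone, 0.51 (exact permutation test, adjusted p = 0.0437), was not past the threshold with an offset of 0.1 CPM or when any of 9 of the 10 libraries was left out.

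**Figure D5:**
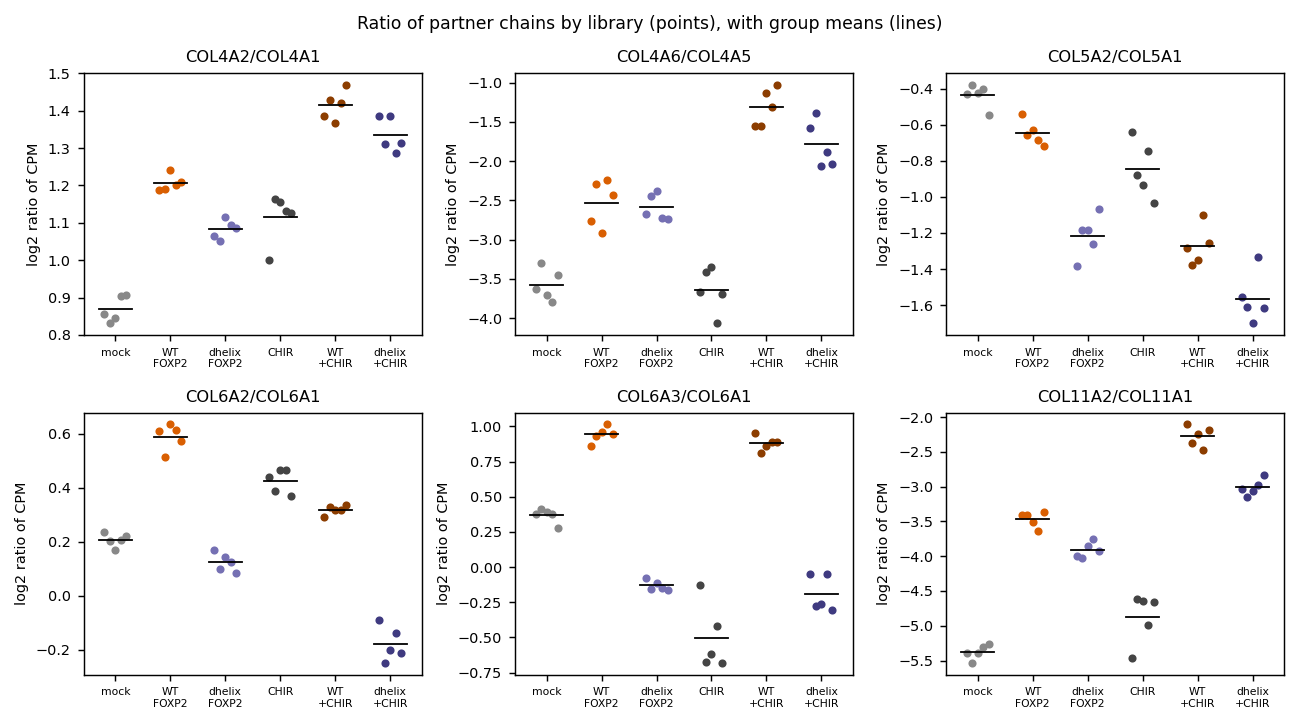
Log2 ratio of partner chains in each library by group, for the 6 pairs tested, with group means as lines. The COL6A3/COL6A1 ratio is above mock with WT FOXP2 and below it with dhelix FOXP2, and the COL4A2/COL4A1 ratio spans less than the COL4A6/COL4A5 ratio.

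Genes that make, trim, cross-link and bind collagen were followed from a list of 56 symbols, of which 50 were in the table and 47 were tested. Against mock, 10 rose and 31 fell with CHIR, 8 and 35 with WT FOXP2, and 10 and 33 with dhelix FOXP2, beside the shares of all genes given above. The lysyl oxidases, which cross-link collagen, fell in all 5 of 5 members (LOX, LOXL1, LOXL2, LOXL3 and LOXL4) in each of the 3 comparisons. LOXL4 had 344 ± 5.26 CPM in mock, 25.4 ± 5.11 with CHIR (-3.77), 26.1 ± 1.36 with WT FOXP2 (-3.72) and 32.5 ± 1.79 with dhelix FOXP2 (-3.41). Of the 21 genes for hydroxylation, folding and export, 12 fell and 5 rose with CHIR, 13 and 5 with WT FOXP2, and 11 and 7 with dhelix FOXP2. These calls covered 81%, 85.7% and 85.7% of the 21 genes, near the 74.1%, 81.6% and 80.5% of all genes. Their median changes were small, at -0.26, -0.26 and -0.078. LEPREL1, a prolyl 3-hydroxylase, changed by -3.56 with CHIR, and TMEM38B, an ion channel of the endoplasmic reticulum, rose in all 3 comparisons by 1.26, 0.87 and 0.99.

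ADAMTS14, which removes the amino-terminal propeptide of fibrillar collagens, rose with CHIR from 2.18 ± 0.427 to 21.8 ± 7.23 CPM (3.30) and fell with WT FOXP2 (-3.45) and dhelix FOXP2 (-2.92). On top of a plasmid, CHIR raised it as well, by 2.81 and 3.04. Among receptors, ITGA11, the integrin subunit that binds type I collagen, fell from 5.73 ± 0.862 CPM in mock to 0.169 ± 0.0954 with CHIR and 0.426 ± 0.158 with WT FOXP2, while ITGA2 rose from 55.2 ± 2.11 to 254 ± 66.4, 125 ± 3.26 and 79.9 ± 2.74 CPM with CHIR, WT FOXP2 and dhelix FOXP2. LUM, a small proteoglycan on fibrils, fell by -2.73 with dhelix FOXP2. Of the 5 cross-linking genes, 4 fell with CHIR in WT FOXP2 cells and 5 in dhelix FOXP2 cells, where 30.2% and 29.1% of all genes were lower. LOX changed by -2.15 with WT FOXP2 and -1.67 with dhelix FOXP2.

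Between dhelix and WT FOXP2 cells 25 of the 47 pathway genes were higher and 3 lower, and with CHIR 18 were higher and 0 lower, where 35.6% of all genes passed without CHIR (16.9% higher, 18.7% lower) and 30.6% with CHIR (16.6% higher, 13.9% lower). Among pathway genes with a mean of at least 1 CPM, the highest differences without CHIR were ITGA11 at 1.21, ADAMTS2 at 0.91 and TNXB at 0.79. Over all 47 genes, 3 were called higher by 2-fold or more, so genes below 1 CPM had larger fitted differences than ADAMTS2 and TNXB. The 3 lower genes were ITGA2 (-0.65), LOX (-0.34) and DDR2 (-0.21). With CHIR the highest, under the same limit, were LUM at 1.06, ADAMTS2 at 1.04 and FN1, the fibronectin gene, at 0.65. FN1 was at 4814 ± 321 CPM with CHIR, above the 2353 ± 77.9 CPM of mock, and at 1237 ± 26.9 CPM with WT FOXP2 and 837 ± 47.3 CPM with WT FOXP2 + CHIR.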

How the data were processed

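RNA of 30 libraries was sequenced as stranded mRNA, paired end, per the labels' protocols. The authors deposited raw counts per gene, 1 column a library. Reads were aligned with STAR 2.6.1a to hg19 and counted with featureCounts of Subread, per the submitters' processing notes, which also name DESeq2. The strand setting of the counting is not given in the sources used here, so overlapping and antisense genes cannot be told apart. The 5 libraries of a group are biological replicates per the labels.

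The deposited counts were tested with edgeR 4.0.16 in R 4.3.3 (TMM scaling, filterByExpr over the 6 groups, robust glmQLFit, glmQLFTest), all 30 libraries in 1 fit, for 9 pairs of groups and 3 interactions. 18485 of 57373 genes were tested and p-values adjusted by Benjamini-Hochberg over all of them at 0.05, and the biological coefficient of variation was 5.62%. CPM use the TMM-scaled library sizes, and levels per kilobase use lengths of the longest coding transcript in GENCODE, on another build than the counts. In a test on simulated counts for WT FOXP2 against mock (16734 genes in that step), 52%, 78%, 92% and 98% of 50 genes each changed 1.2-, 1.5-, 2- and 4-fold were recovered. Ratios of partner chains were tested with exact permutation tests in scipy 1.17.1. COL6A5 had 2 counts in mock, so count ratios with exact 95% intervals, which cover counting error only, replace its fold changes.

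The members, classes, pathway genes, markers and motifs were chosen with earlier results of these data known. Values by library are given for the 10 members with the highest mean CPM and the 2 highest of each class of 3 or more members with at least 1 CPM, group means for members with a group mean of at least 1 CPM, the rest by range and count, and of the pathway genes up to 3 per direction and comparison among those of at least 1 CPM. The same replicate numbers recur in every group, and in 0 of 9 comparisons did all same-numbered libraries correlate above 0.1 (range -0.078 to 0.145), so the main fit has no block. The alternatives tried were DESeq2 size factors, the DESeq2 1.42.0 test, no filter on low counts, a mean of at least 1 CPM, the replicate block, FOXP2 left out of library sizes, a test against a 2-fold change, the compared groups alone, leaving out 3 libraries together or each library in turn, and a ratio offset of 0.1 CPM.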

Additional observations from a re-analysis of the deposited data

Results flagged for a closer look

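In 6 of 90 groups of 5 libraries 1 library stood clear of the other 4, where chance gives about 1 in 20 groups. COL4A2 was at 886 CPM in WT FOXP2 replicate 2, and between 819 and 835 CPM in the other 4. COL5A2 was at 30.7 CPM in WT FOXP2 replicate 1, and between 24.5 and 26.2 CPM in the others. CHIR replicate 1 was low for COL6A3, with 211 CPM against 229 to 234 CPM, and for COL22A1, with 72.5 CPM against 85.7 to 88.9 CPM. The share of counts in collagen genes was 0.366% in WT FOXP2 replicate 2, against 0.347% to 0.351%, and 0.371% in dhelix FOXP2 replicate 2, against 0.383% to 0.385%.

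The effect of CHIR differed by test between cells with a FOXP2 plasmid and mock cells for most collagens. With WT FOXP2 the difference in log2 fold change was positive for COL6A3 1.74, COL6A2 0.419, COL1A1 2, COL6A1 0.905, COL5A1 1.42, COL11A1 1.35, COL5A2 1.21, COL22A1 0.227, COL8A1 0.85, COL16A1 1.61, COL3A1 0.95, COL9A2 2.02, COL7A1 0.847, COL18A1 1.52, COL5A3 0.822, COL11A2 2.24, COL4A4 1.18, COL14A1 1.86, COL26A1 2.73, COL24A1 1.09, COL28A1 1.46, COL4A6 1.35, COL8A2 4.58, COL2A1 6.64, COL20A1 5.08 and COL9A3 3. It was negative for COL12A1 -0.428, COL27A1 -0.489, COL13A1 -0.872, COL17A1 -1.22, COL4A5 -0.387, COL19A1 -6.13, COL6A5 -7.38 and COL6A6 -2.53.

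With dhelix FOXP2 the difference was positive for COL6A3 1.79, COL6A2 0.438, COL1A1 2.12, COL6A1 0.958, COL4A1 0.209, COL5A1 1.34, COL11A1 1.38, COL5A2 1.42, COL22A1 0.783, COL8A1 0.797, COL16A1 1.13, COL3A1 1.04, COL9A2 1.74, COL7A1 0.484, COL18A1 1.51, COL5A3 0.593, COL11A2 1.95, COL4A4 1.76, COL14A1 2.14, COL26A1 2.77, COL24A1 1.57, COL28A1 1.2, COL4A6 1.41, COL15A1 1.29, COL8A2 3.87, COL2A1 6.88, COL20A1 4.42 and COL9A3 2.49. It was negative for COL12A1 -0.29, COL27A1 -0.48, COL13A1 -1.09, COL17A1 -1.38, COL19A1 -5.82, COL6A5 -7.45 and COL6A6 -2.13. Both sets of differences share the CHIR effect in mock cells, so they are not independent. The values of COL6A5, which had 2 counts in mock, depend on the fit, and those of COL2A1, COL20A1 and COL14A1 rest on few counts in at least 1 group: the WT FOXP2 value of COL2A1 was 7.29 without CHIR replicate 5 and 7.59 without WT FOXP2 replicate 5. Between the 2 FOXP2 forms the CHIR effect differed for COL22A1 0.556, COL16A1 -0.481 and COL4A5 0.458.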

How the results depend on the processing

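None of the results that passed the threshold in the main fit or an alternative reversed its direction. Differences that did not pass could change sign. With single libraries left out, the COL4A6/COL4A5 ratio ranged from -0.134 to 0.0468 for CHIR against mock. For dhelix against WT FOXP2 it ranged from -0.16 to 0.00964. Counts of called collagens stayed within 1.5 times in every alternative except the test against a 2-fold change and the counts for the helix deletion with CHIR. That test called 5 higher and 17 lower for CHIR and 17 lower for dhelix FOXP2 against mock. On top of CHIR it called 6 and 10 for WT FOXP2 and 6 and 6 for dhelix FOXP2, for the CHIR effect 2 and 3 with WT FOXP2 and 3 and 2 with dhelix FOXP2, and for its difference from mock 14 and 2, and 15 and 3. It called 0 and 0 between the FOXP2 forms, with and without CHIR, and 0 and 0 for the helix deletion with CHIR. For that last comparison (2 higher, 1 lower) it was 2 lower with DESeq2 size factors, the DESeq2 test, a mean of at least 1 CPM or FOXP2 left out of library sizes, 1 and 3 with no filter, 3 lower without the 3 libraries, 5 and 4 with the compared groups alone, and 1 to 3 higher and 1 to 2 lower with each library left out. The cause was not tested.

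With the replicate block the helix deletion with CHIR had 2 lower calls, with COL13A1 added at -0.22 (adjusted p = 0.0363). COL15A1 against mock with WT FOXP2 (0.42, adjusted p = 0.0619) and COL4A4 with CHIR in WT FOXP2 cells (-0.56, adjusted p = 0.0543) lost their calls. Of 45 libraries, 14 correlated best with their own number, so the numbers are not taken as pairs.

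With an offset of 0.1 CPM the COL4A6/COL4A5 ratio differed between the FOXP2 forms with CHIR by -0.497 (exact permutation test, adjusted p = 0.0700) and the COL11A2/COL11A1 ratio between CHIR and mock by 0.358 (adjusted p = 0.118), both past the threshold at 0.5 CPM. Leaving out single libraries ended 4 calls in most of the 10 cases each, where the exact test has 4 against 5 libraries. COL11A2/COL11A1 with CHIR against mock lost its call in 9 (0.442 to 0.652 over all 10, adjusted p = 0.0686 to 0.0875 where lost). Between the FOXP2 forms with CHIR, COL4A2/COL4A1 lost it in 8 (-0.0905 to -0.0643, adjusted p = 0.0514 to 0.0875), COL4A6/COL4A5 in 7 (-0.575 to -0.403, adjusted p = 0.0525 to 0.0714) and COL5A2/COL5A1 in 7 (-0.347 to -0.247, adjusted p = 0.0514 to 0.0536). For COL6A3/COL6A1 in dhelix FOXP2 + CHIR against CHIR it gave 0.273 to 0.410, the highest without CHIR replicate 1 (adjusted p = 0.0182). The 7 members with at most 138 counts over all libraries were not tested, and low counts limit what can be said of them.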
